A study of Mus musculus with 8 samples.

Results

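Homeobox genes of the Hox and Cdx families tell cells where they lie along the gut, and 9 of them, Cdx1, Cdx2, Hoxa9, Hoxa10, Hoxa11, Hoxb13, Hoxd10, Hoxd12 and Hoxd13, were followed through the RNA of mouse colon epithelium. They were chosen by symbol, and each was found in the tables, which list 24346 gene symbols. The epithelial cells came from the colon of untreated C57BL/6J mice of 4 genotypes with 1 male and 1 female library each, 8 libraries in all. The genotypes were St6galnac6-/-, which lacks the sialyltransferase St6galnac6, B3galt5D116A, which carries the D116A substitution in the galactosyltransferase B3galt5, B3gnt7-/-, which lacks the N-acetylglucosaminyltransferase B3gnt7, and wild-type. The labels name colon without a segment and give no age. Whether each library holds RNA of 1 animal or of several is not stated either, so p-values measure the spread between these libraries only. The question was whether the 8 libraries sampled the same stretch of colon.

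Hox genes lie in clusters whose order along the chromosome follows the order of their expression along the body axis, so the genes with the highest group numbers mark the most posterior tissue. In the gut, the posterior members, above all Hoxb13 and Hoxd13, are known from the distal colon and rectum. Cdx1 and Cdx2 are the caudal-type factors that keep intestinal epithelium intestinal, and Cdx factors act upstream of Hox genes in the embryo.

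All 9 proteins bind DNA through a homeodomain, encoded by a homeobox of 180 bases. The stretch shown here, codons 40 to 60 of the homeobox, codes for the third helix, which reads the DNA. It is shown because it is the part that the Cdx and Hox members share. The sequences are from GENCODE M21 transcripts (mm10), 5′ to 3′ on the coding strand, and capitals mark the 6 conserved codons at the core of that helix.
Cdx2: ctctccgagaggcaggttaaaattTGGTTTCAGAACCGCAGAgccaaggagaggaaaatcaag
Hoxb13: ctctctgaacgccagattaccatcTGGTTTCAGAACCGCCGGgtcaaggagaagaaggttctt
Hoxd13: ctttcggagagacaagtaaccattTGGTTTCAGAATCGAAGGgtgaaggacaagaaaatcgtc
Hoxa10: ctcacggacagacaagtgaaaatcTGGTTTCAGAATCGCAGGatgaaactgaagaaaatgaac
Hoxd10: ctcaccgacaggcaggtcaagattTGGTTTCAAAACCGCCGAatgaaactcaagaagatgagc
The Hoxb13 stretch lies on the plus strand at chr11:96196137-96196199 and the Hoxd13 stretch on the plus strand at chr2:74670047-74670109. The Hoxa10 stretch is on the minus strand at chr6:52232554-52232616, and the Hoxd10 stretch on the plus strand at chr2:74694258-74694320. The Cdx2 stretch is joined from 2 exons on the minus strand between chr5:147302046-147303195. Over the whole homeobox, Hoxb13 and Hoxd13, both of group 13, shared 67.2% of bases, and Hoxb13 and Cdx2 shared 53.9%. The closest pairs were Hoxa10 and Hoxd10 at 78.9% and Cdx1 and Cdx2 at 78.3%.

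Facts of the whole series bear on how these values can be read. Levels are FPKM, a fragment count divided by transcript length and by the size of the library, so levels of different genes can be set side by side. Counts were not given. Relative depth, read from the steps between the lowest values, ran from 1 to 1.45 times that of the wild-type male library, and it rested on 27.7% to 33.9% of the low values, so counting error is not known. St6galnac6 was at 218 and 232 FPKM for the St6galnac6-/- male and female, against 368 and 343 FPKM in wild-type, and B3gnt7 at 68.8 and 142 FPKM in B3gnt7-/-, against 215 and 189.8 FPKM in wild-type, so transcript of both targeted genes remained. B3galt5 was at 133 and 93.1 FPKM in B3galt5D116A, against 117 and 105 FPKM in wild-type. The epithelial marker Epcam was at 864 to 953 FPKM, but not all epithelial markers were as even. Krt8 ran from 3747 to 5508 FPKM and Krt19 from 2824 to 3722 FPKM. In the B3galt5D116A female and the B3gnt7-/- male libraries Krt20 was highest, at 735 and 687 FPKM, against 432 to 586 FPKM in the others. Cdh17 was also highest in them, at 293 and 280 FPKM, against 236 to 271 FPKM. Cdh1 was lowest in them, at 280 and 302 FPKM, against 306 to 359 FPKM. The summed level of 7 squamous markers was 3.01 to 6.16 FPKM. The defining Krt5 and Trp63 were listed at 0 in all 8 libraries, and Krt14, Krt4 and Krt10 had means of 1.19, 1.31 and 1.27 FPKM. The B3galt5D116A female library stood apart in some small intestinal RNA. Apoa4 was at 0.392 FPKM and the defensin Defa24 at 2.91 FPKM there, and both were listed at 0 in the other 7, while Apoa1 was at 2.19 FPKM against at most 0.324 FPKM and Fabp6 at 41.3 FPKM against at most 21.97 FPKM. The B3gnt7-/- female library did so in stromal RNA. The summed level of 10 fibroblast and stromal markers was 29.98 FPKM there and 3.37 to 5.78 FPKM in the other 7 libraries, with decorin (Dcn) at 18.9 FPKM against 2.101 to 3.35 FPKM and Col3a1 at 3.61 FPKM against 0.301 to 0.567 FPKM. Posterior Hox genes are also expressed in gut mesenchyme, and each value of that library is given with this in view.

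Among the 9 genes, Cdx1 had the highest level, with a mean of 195 FPKM over the 8 libraries, followed by Hoxb13 at 185 FPKM and Cdx2 at 92.7 FPKM. Cdx1 and Hoxb13 did not differ beyond their spread, since each was the higher in 4 libraries. Hoxb13 exceeded Cdx2 in all 8 libraries, and the lowest Hoxb13 value, 129 FPKM, lay above the highest Cdx2 value, 107 FPKM. A second tier held Hoxa10 at 17.6, Hoxd13 at 15.7 and Hoxa9 at 11.4 FPKM, whose ranges overlapped, although Hoxd13 exceeded Hoxa9 in all 8 libraries and Hoxa10 exceeded Hoxd13 in 6. Hoxd10 at 1.80, Hoxa11 at 1.55 and Hoxd12 at 0.730 FPKM were low, with overlapping ranges, and Hoxa11 exceeded Hoxd12 in all 8 while Hoxd10 exceeded Hoxa11 in 5. Hoxb13 had a higher mean level than 95.8% of the 11537 genes tested, those that averaged 1 FPKM or more.

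**Figure D1:**
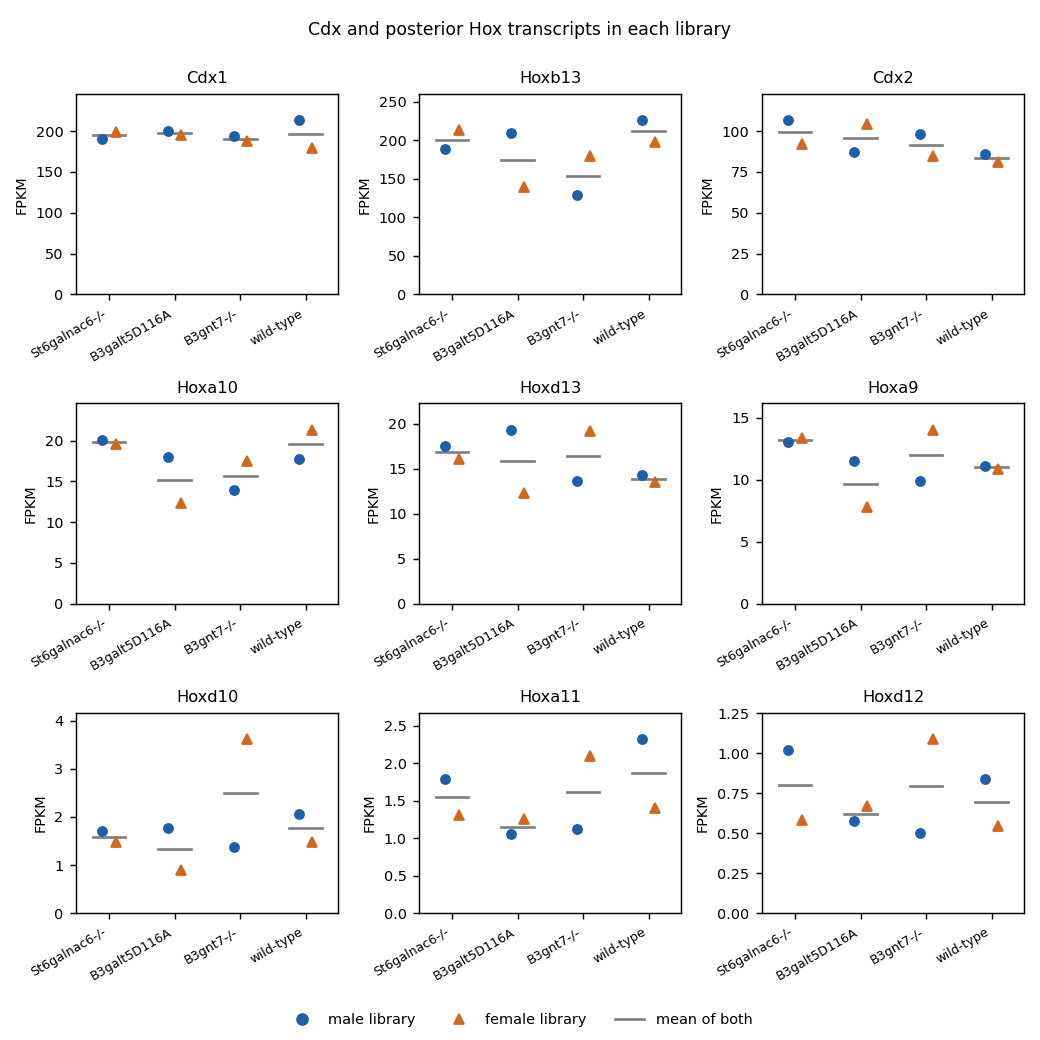
FPKM of the 9 genes by genotype, in order of mean level, with circles for male and triangles for female libraries and grey bars for the mean of the pair. The Hoxb13 panel shows the B3galt5D116A female at 139 FPKM and the B3gnt7-/- male at 129 FPKM below the other 6 libraries, while Cdx1 stays between 179.8 and 213 FPKM.

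Cdx1 (mm10 chromosome 18 from 61018862 to 61036199, minus strand) was at 191 and 199 FPKM for the St6galnac6-/- male and female, 201 and 195 FPKM for the B3galt5D116A pair, 194 and 188 FPKM for the B3gnt7-/- pair, and 213 and 179.8 FPKM for the wild-type pair. The wild-type pair held both the highest and the lowest value, so every mutant library lay inside the wild-type range. The coefficient of variation over the 8 libraries was 5.09%, and 3.02% of the 729 genes with a mean within a factor of 2 of it varied less.

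Cdx2 (chromosome 5 from 147300805 to 147307270, minus strand), which holds the intestinal program in adult epithelium, was at 107 and 92.4 FPKM for the St6galnac6-/- male and female, 87.5 and 104 FPKM for the B3galt5D116A pair, 98.5 and 84.6 FPKM for the B3gnt7-/- pair, and 86.0 and 81.3 FPKM for the wild-type pair. The St6galnac6-/- and B3galt5D116A pairs lay above both wild-type libraries, and the B3gnt7-/- pair overlapped them. These gaps did not pass the test over all genes. The log2 difference was 0.25 (SE 0.15, limma adjusted p = 0.665) for St6galnac6-/-, 0.19 (SE 0.15, adjusted p = 0.600) for B3galt5D116A and 0.13 (SE 0.15, adjusted p = 0.898) for B3gnt7-/-.

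Hoxb13 (chromosome 11 from 96194316 to 96197447, plus strand), the most posterior gene of the Hoxb cluster, was at 189 and 213 FPKM for the St6galnac6-/- male and female, 209 and 139 FPKM for the B3galt5D116A pair, 129 and 179.6 FPKM for the B3gnt7-/- pair, and 226 and 198 FPKM for the wild-type pair. It averaged 201 ± 17.1 FPKM in St6galnac6-/-, 174 ± 49.8 FPKM in B3galt5D116A, 154 ± 35.9 FPKM in B3gnt7-/- and 212 ± 19.95 FPKM in wild-type (SD, n = 2 each). Both B3gnt7-/- libraries lay below both wild-type libraries, and the other mutants overlapped wild-type. The lowest libraries belonged to different genotypes and sexes. On the log2(FPKM + 1) scale the largest gap between the sexes of 1 genotype was 0.59, in B3galt5D116A, and the genotype means spanned 0.47. The first is between single libraries, which vary more than means of a pair. The B3gnt7-/- difference was -0.47 (SE 0.24, limma adjusted p = 0.745), a fold of 0.720 with a 95% confidence interval of 0.486 to 1.07. It was -0.81 without the B3gnt7-/- female library and -0.13 without the B3gnt7-/- male library, neither past the threshold. For B3galt5D116A it was -0.31 (SE 0.24, adjusted p = 0.604), with an interval of 0.544 to 1.20, and it was 0.06 without the B3galt5D116A female library.

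Hoxd13 (chromosome 2 from 74668310 to 74671599, plus strand), the most posterior gene of the Hoxd cluster, was at 17.5 and 16.1 FPKM for the St6galnac6-/- male and female, 19.3 and 12.3 FPKM for the B3galt5D116A pair, 13.6 and 19.2 FPKM for the B3gnt7-/- pair, and 14.3 and 13.5 FPKM for the wild-type pair. The St6galnac6-/- pair lay above the wild-type pair. B3galt5D116A held both the highest and the lowest library. Its log2 differences from wild-type were positive, 0.26 (SE 0.23, adjusted p = 0.787) for St6galnac6-/-, 0.15 (SE 0.23, adjusted p = 0.805) for B3galt5D116A and 0.21 (SE 0.23, adjusted p = 0.890) for B3gnt7-/-, where those of Hoxb13 were negative, and none passed in limma. Without the B3galt5D116A male library or without the B3gnt7-/- female library, the difference of that mutant turned to -0.20 and -0.16. Hoxd12 (chromosome 2 from 74675013 to 74677705), its neighbour, ran from 0.505 to 1.09 FPKM, lowest in the B3gnt7-/- male and highest in the B3gnt7-/- female library. With a mean under 1 FPKM it was not in the test. When no filter was applied its smallest limma adjusted p was 0.897.

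Hoxa9 (chromosome 6 from 52223100 to 52231089, minus strand), Hoxa10 (52231197 to 52240854) and Hoxa11 (52242106 to 52245810) sit side by side and mark posterior trunk and hindgut. Hoxa10 was at 20.1 and 19.6 FPKM for the St6galnac6-/- male and female, 18.03 and 12.3 FPKM for the B3galt5D116A pair, 13.9 and 17.5 FPKM for the B3gnt7-/- pair, and 17.8 and 21.4 FPKM for the wild-type pair. Hoxa9 was at 13.02 and 13.4 FPKM for the St6galnac6-/- male and female, 11.5 and 7.77 FPKM for the B3galt5D116A pair, 9.90 and 14.03 FPKM for the B3gnt7-/- pair, and 11.1 and 10.9 FPKM for the wild-type pair. For both genes the B3galt5D116A female library was the lowest and the B3gnt7-/- male library the next lowest. Both B3gnt7-/- values of Hoxa10 lay under both wild-type values, with a log2 difference of -0.30 (SE 0.20, limma adjusted p = 0.808). The St6galnac6-/- pair of Hoxa9 lay above the wild-type pair, with 0.24 (SE 0.21, adjusted p = 0.787).

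Hoxa11 was at 1.79 and 1.31 FPKM for the St6galnac6-/- male and female, 1.06 and 1.26 FPKM for the B3galt5D116A pair, 1.13 and 2.102 FPKM for the B3gnt7-/- pair, and 2.33 and 1.41 FPKM for the wild-type pair. Both B3galt5D116A values lay under both wild-type values, with a log2 difference of -0.39 (SE 0.27, limma adjusted p = 0.556). The differences were -0.16 in St6galnac6-/- and -0.14 in B3gnt7-/-. The antisense transcript Hoxa11os overlaps Hoxa11 on the opposite strand and had far more RNA, 25.7 to 74.6 FPKM. The kit keeps strand, but whether the authors' counting used it is not given in the sources used here, so reads of the pair cannot be told apart. Hoxd10 (chromosome 2 from 74691924 to 74695105, plus strand) was at 1.70 and 1.47 FPKM for the St6galnac6-/- male and female, 1.77 and 0.896 FPKM for the B3galt5D116A pair, 1.38 and 3.62 FPKM for the B3gnt7-/- pair, and 2.07 and 1.49 FPKM for the wild-type pair. Its highest value fell in the B3gnt7-/- female, the library with the stromal markers, and their part in it was not tested. Without that library the B3gnt7-/- difference was -0.38, against 0.26 with it. A noncoding gene, Gm28309, overlaps Hoxd10 on the same strand.

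Over all genes, 8 of the 9 could be tested and 0 passed in any comparison, by limma on log2(FPKM + 1) with genotype and sex as terms and Benjamini-Hochberg adjustment over 11537 genes. Of all genes tested, 0.0867% passed in St6galnac6-/- against wild-type, 0.078% in B3galt5D116A and 0.052% in B3gnt7-/-, so 0 of 8 is near the background and is no result about these genes. At an unadjusted p under 0.05 the count was also 0 of 8 in each, where 9.04%, 11.7% and 7.17% of all genes fell. The members' median log2 difference was 0.0073 in St6galnac6-/- (4 positive, 4 negative), -0.23 in B3galt5D116A (3 positive, 5 negative) and 0.03 in B3gnt7-/- (4 positive, 4 negative), beside medians over all genes of 0.0030, 0.0012 and -0.0095. The 3 comparisons share the wild-type pair.

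The intervals show what these libraries could not tell. All 18 intervals of the 6 tested Hox members against wild-type spanned no difference, and their bounds ran from 0.470-fold to 2.12-fold. For Cdx1 and Cdx2 the 6 intervals ran from 0.791-fold to 1.51-fold. These are the outermost bounds over the genes and comparisons, and single intervals were narrower. The folds are of FPKM + 1, so for low genes they understate the fold of FPKM. Both outer Hox bounds were those of Hoxd10, with a mean of 1.80 FPKM, so larger changes of its FPKM lie within the interval.

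**Figure D2:**
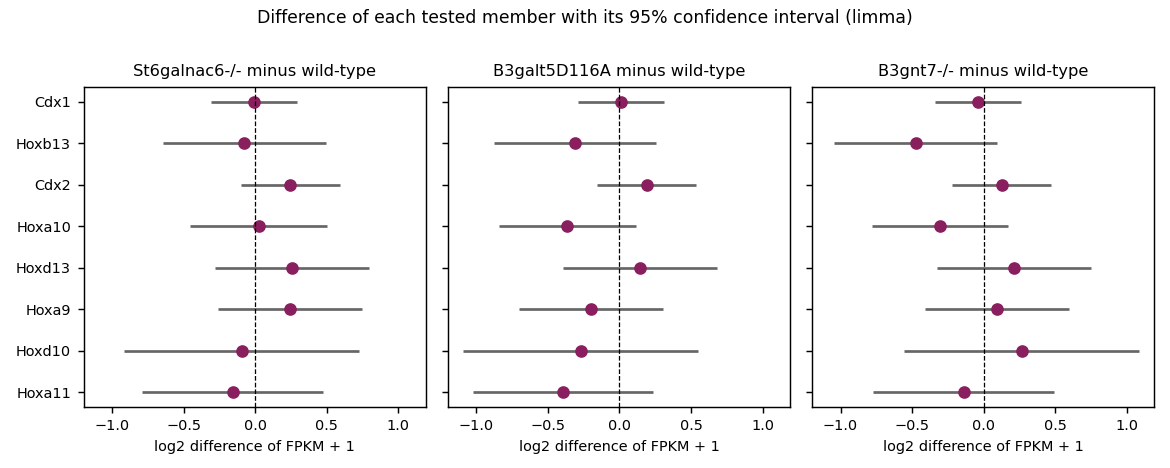
Log2 difference of FPKM + 1 between each mutant and wild-type for the 8 tested genes, with points for the limma estimate and lines for the 95% confidence interval. Every line crosses 0, and the lines of Cdx1 are the shortest. The point of Hoxb13 in B3gnt7-/-, at -0.47, is the farthest to the left, and the line of Hoxd10 in B3galt5D116A reaches farthest left, to -1.09.

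Between mutants and between sexes the count was 0 of 8 as well. The background was 0.026% of genes for St6galnac6-/- against B3galt5D116A, 0.0433% for St6galnac6-/- against B3gnt7-/-, 0.00867% for B3galt5D116A against B3gnt7-/- and 0.052% for males against females, of which 0.0347% were higher and 0.0173% lower in males. The largest log2 difference between mutants was -0.53 for Hoxd10, B3galt5D116A against B3gnt7-/- (SE 0.35, limma adjusted p = 0.770). Male minus female differences were small, between -0.0030 and 0.08 on the log2 scale. A moderated F test over the 4 genotypes called 0 of 8, beside 0.0867% of all genes, with a smallest adjusted p of 0.775.

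For each Hox member, the widest gap between the sexes of 1 genotype exceeded the range of the 4 genotype means on the log2 scale. Single libraries vary more than means of a pair, so this order can arise without any effect. No conclusion on genotype is drawn from it. The B3galt5D116A female library had the lowest level of Hoxa9, Hoxa10, Hoxd10 and Hoxd13 among the 8, and the B3gnt7-/- male library the lowest of Hoxb13 and Hoxd12. The 9 posterior Hox genes tested, groups 9 to 13 and including Hoxb9, Hoxd11 and Hoxa13, were below their own mean over the 8 libraries in 8 of 9 cases in each of these libraries, with medians of -0.39 and -0.19 on the log2 scale. The part of the small intestinal RNA of the B3galt5D116A female library in this was not tested. The wild-type male and female libraries had medians of 0.04 and -0.0047. In the B3gnt7-/- female library, 8 of 9 lay above, with a median of 0.29, and 5 had their highest value there. The summed FPKM of these 9 genes was 290 and 308 in the male and female St6galnac6-/- libraries, 306 and 213 in B3galt5D116A, 212 and 287 in B3gnt7-/-, and 316 and 292 in wild-type. These libraries were picked out after their values were seen, so this is a description with no test.

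Hoxb13 and Hoxd13 were also set against the mean of Cdx1 and Cdx2 of the same library, a log2 difference that a shared scaling of the library hardly moves. For Hoxb13 it was 0.40 and 0.65 in St6galnac6-/-, 0.66 and -0.04 in B3galt5D116A, -0.10 and 0.51 in B3gnt7-/-, and 0.74 and 0.71 in wild-type. The B3galt5D116A female and the B3gnt7-/- male had the lowest values, and they were also lowest against Cdx2 alone, at 0.41 and 0.38, where no library was below 0. The coefficient of variation was 5.09% for Cdx1 and 10.3% for Cdx2, against 18.9% for Hoxb13. The Hoxb13 balance therefore mostly repeats the Hoxb13 levels, which were already lowest in these libraries, and is no separate evidence. For Hoxd13 it was -2.95 and -3.00 in St6galnac6-/-, -2.71 and -3.43 in B3galt5D116A, -3.25 and -2.66 in B3gnt7-/-, and -3.16 and -3.07 in wild-type. The same libraries were lowest, but the wild-type pair stood next to them.

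The rest of the Hox family gives the frame. The Hoxb cluster had its highest levels at Hoxb13 (185 FPKM), Hoxb9 (32.8 FPKM) and Hoxb6 (28.1 FPKM), and the Hoxa cluster at Hoxa10, Hoxa9 and Hoxa13 (10.1 FPKM). Of the Hoxc cluster, Hoxc10, Hoxc11, Hoxc12 and Hoxc13 were listed at 0 in all 8 libraries and no other member had a mean above 0.047 FPKM. Hoxb9 varied little, at 29.1 to 35.4 FPKM with a coefficient of variation of 6.28%. Of the 9 other posterior Hox genes 3 could be tested, and of the 23 genes of groups 1 to 8, 14. Of both lists 0 passed in any mutant against wild-type, beside the 0.0867%, 0.078% and 0.052% of all genes. The 14 had medians of 0.15 in St6galnac6-/-, 0.04 in B3galt5D116A and 0.35 in B3gnt7-/-.

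**Figure D3:**
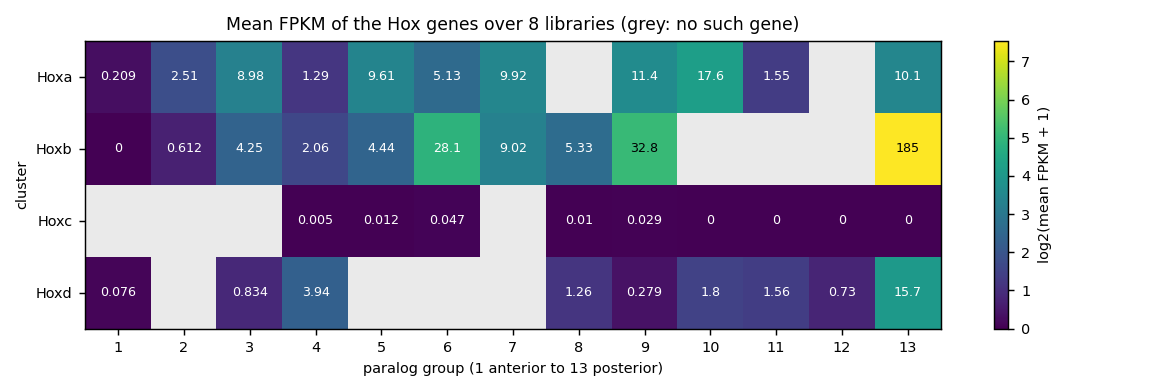
Mean FPKM over the 8 libraries of each Hox gene, by cluster (rows) and paralog group from anterior to posterior (columns), with colour on the log2(mean FPKM + 1) scale and grey where no such gene exists. Hoxb13 at 185 FPKM stands above every other Hox gene, and the Hoxc row is at or near 0.

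In the B3galt5D116A female and B3gnt7-/- male libraries the Hoxa genes and the Hoxb genes of groups 3 to 8 lay on opposite sides of their means. Hoxb13 lay on the side of the Hoxa genes, at -0.39 and -0.50 on the log2 scale, and Hoxb9 at its mean, at 0.0024 and 0.04. All 10 tested Hoxa genes, anterior and posterior alike, were below their mean in each, with medians of -0.47 and -0.23 on the log2 scale. The Hoxd genes split by group. The 2 tested Hoxd genes of groups 1 to 8 were above their mean in each, with medians of 0.14 and 0.45. The 3 of groups 9 to 13 were below it in each, with medians of -0.31 and -0.18. All 6 tested Hoxb genes of groups 1 to 8 were above their mean in each, with medians of 0.29 and 0.29. They were also all above in the St6galnac6-/- male library, with a median of 0.21, where 9 of the 10 Hoxa genes were above as well. All 6 were below in the B3galt5D116A male library, with a median of -0.35, and in the wild-type male and female libraries, with medians of -0.24 and -0.16. Hoxb7 was at 10.9 and 7.19 FPKM for the St6galnac6-/- male and female, 7.93 and 15.4 FPKM for the B3galt5D116A pair, 10.9 and 7.07 FPKM for the B3gnt7-/- pair, and 6.00 and 6.80 FPKM for the wild-type pair. Hoxb6 was at 34.1 FPKM in the B3galt5D116A female and 37.3 FPKM in the B3gnt7-/- male library, above the 23.0 to 31.9 FPKM of the other 6. Within the Hoxb cluster, the log2 difference between Hoxb13 and Hoxb6 was 1.99 and 1.76 in these libraries. Among the other 6 it ranged upward from 2.53 in the St6galnac6-/- male to 3.15 in the wild-type male.

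**Figure D4:**
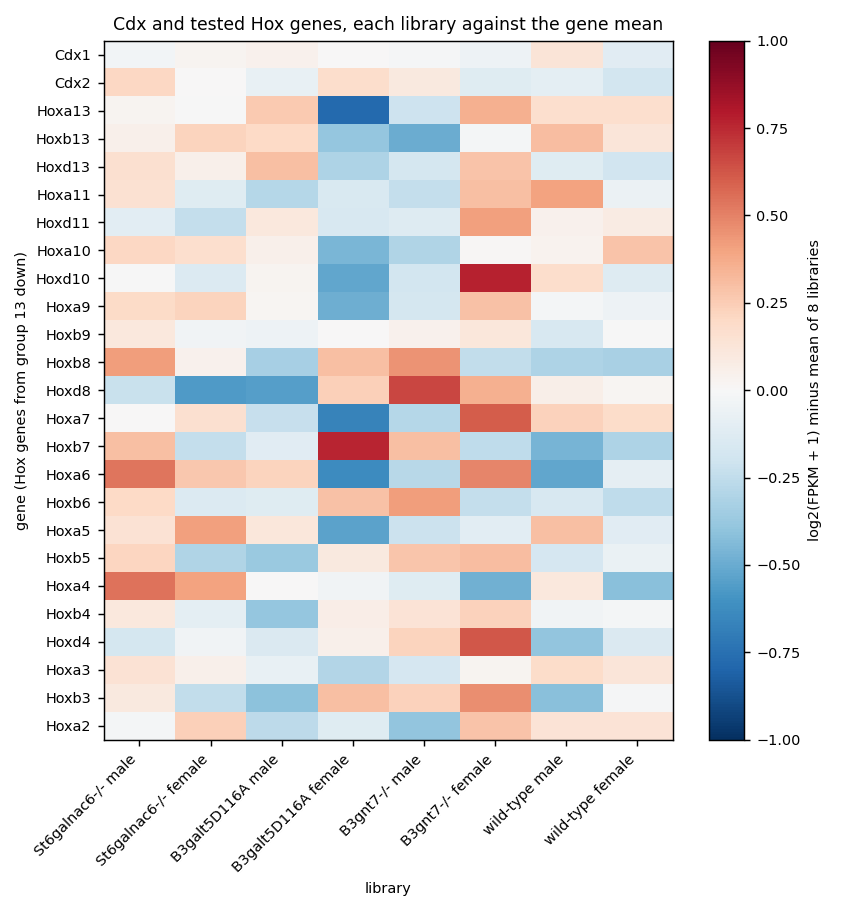
Log2(FPKM + 1) of Cdx1, Cdx2 and the tested Hox genes (rows, Hox genes from group 13 down) in each library (columns), minus the mean of the 8 libraries. The B3galt5D116A female and B3gnt7-/- male columns are blue for the Hoxa genes and Hoxb13 and red for the Hoxb genes of groups 3 to 8, and the B3gnt7-/- female column is red for all 5 Hoxd genes.

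Genes from the lists of regional genes, Cdx targets and small intestine were set beside these values, and they did not move as 1 group. Cyp2c55, a cytochrome of the proximal colon, was at 1283 and 823 FPKM for the St6galnac6-/- male and female, 945 and 1775 FPKM for the B3galt5D116A pair, 1767 and 1542 FPKM for the B3gnt7-/- pair, and 1407 and 1076 FPKM for the wild-type pair. The highest libraries were again the B3galt5D116A female and the B3gnt7-/- male. The water channel Aqp4, also listed as proximal, ran the other way, with its lowest values, 104 and 126 FPKM, in these libraries, against 136 to 177 FPKM in the others. Carbonic anhydrase Car1, from the list of Cdx targets, was highest in them at 16569 and 12186 FPKM, against 5241 to 8296 FPKM in the others. Fut2, a fucosyltransferase also listed as proximal, was at 60.6 and 57.3 FPKM in them, within the 52.9 to 78.5 FPKM of the others. Of the distal list, the sodium channel subunit Scnn1a was lowest in them, at 30.7 and 34.8 FPKM, against 41.2 to 53.7 FPKM. Scnn1b, at 2.99 and 2.49 FPKM, and the claudin Cldn8, at 55.2 and 42.4 FPKM, lay within the range of the others. The ileal bile acid transporter Slc10a2 was highest in them, at 33.1 and 18.7 FPKM, against 11.7 to 17.8 FPKM. Fabp2, from the same small intestinal list, was also highest in them, at 670 and 611 FPKM, against 347 to 504 FPKM. Fabp6 was highest in the B3galt5D116A female at 41.3 FPKM, but in the B3gnt7-/- male it was the second lowest of the 8 libraries at 9.31 FPKM. The glucose transporter Slc5a1 varied little, at 52.5 to 62.4 FPKM, with its lowest value in the B3gnt7-/- male. Whether these levels reflect another stretch of colon was not tested, and in bulk RNA fewer cells of a type and less RNA per cell cannot be told apart.

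**Figure D5:**
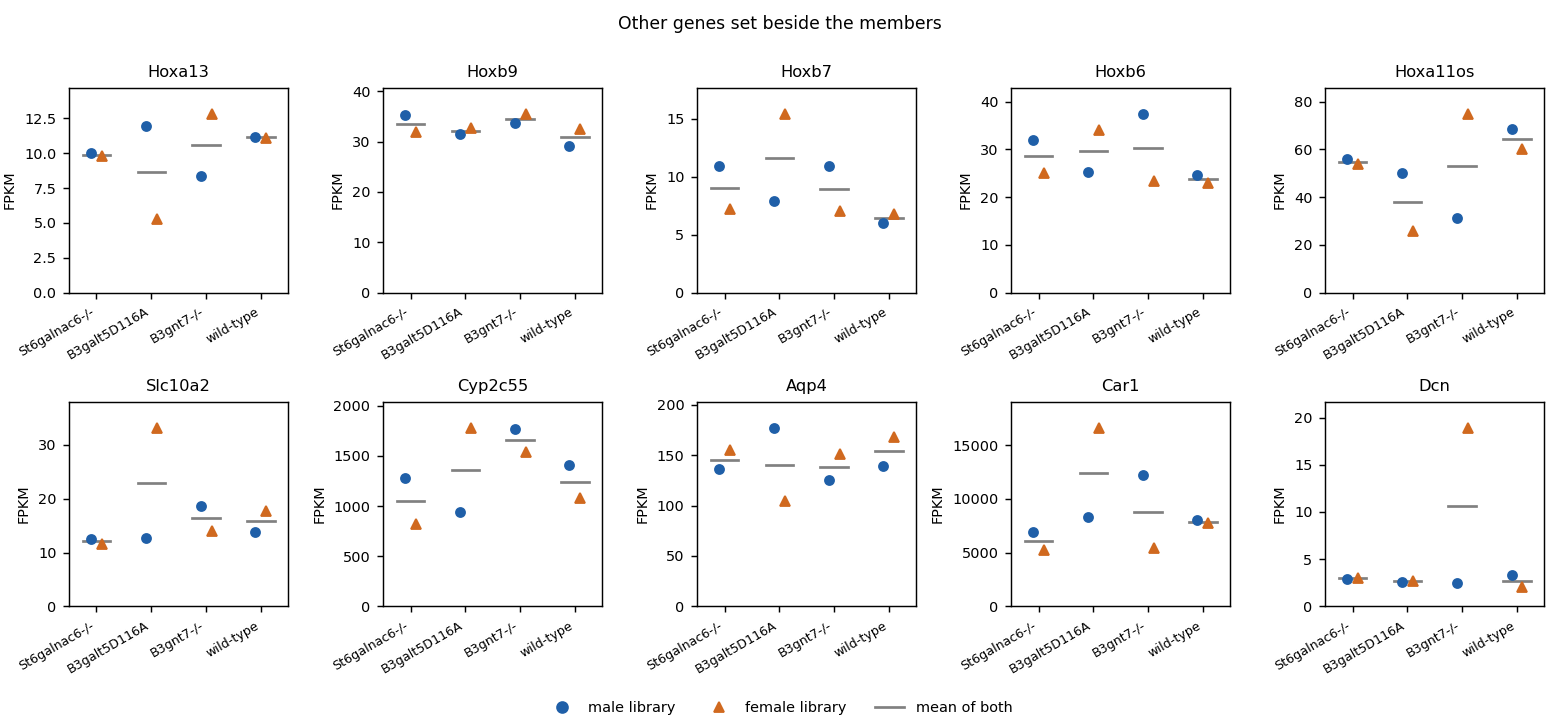
FPKM of 10 genes that are not among the 9, by genotype, with circles for male and triangles for female libraries and grey bars for the mean of the pair. In the B3galt5D116A female and B3gnt7-/- male libraries Hoxa13, Hoxa11os and Aqp4 are low and Hoxb6, Slc10a2, Cyp2c55 and Car1 are high, and Dcn is high in the B3gnt7-/- female library at 18.9 FPKM.

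Of the genes listed as proximal or distal, 3 passed against wild-type. Fxyd4, listed as distal, regulates the sodium pump. It was at 9.67 and 15.4 FPKM for the St6galnac6-/- male and female, against 92.8 and 109.9 FPKM in wild-type, and it fell (log2 -2.95, limma adjusted p = 0.0233), where 0.0607% of all genes passed as lower. The hormone Insl5, also listed as distal, was at 51.8 and 46.2 FPKM in the B3galt5D116A pair, against 11.04 and 12.996 FPKM in wild-type, and it rose (log2 1.94, adjusted p = 0.0069), where 0.0173% passed as higher. Ang4, an antimicrobial ribonuclease listed as proximal, was at 361 and 158 FPKM for the St6galnac6-/- pair, against 3.98 and 7.56 FPKM for the wild-type pair, and it rose (log2 5.20, adjusted p = 0.0468), where 0.026% passed as higher. These were the 3 calls against wild-type among the 9 regional genes that could be tested, 4 proximal and 5 distal. All 3 lost the call when either wild-type library was left out, with adjusted p of 0.602 and 0.504 for Ang4, 0.219 and 0.116 for Fxyd4, and 0.117 and 0.0854 for Insl5 without the male and without the female. Their log2 differences were then 5.06 and 5.34 for Ang4, -2.70 and -3.19 for Fxyd4, and 1.81 and 2.07 for Insl5. The other mutants, set against the same wild-type pair, had differences of the same sign that did not pass. They were 1.12 in St6galnac6-/- and 1.14 in B3gnt7-/- for Insl5 (limma adjusted p = 0.0695 and 0.0785), -1.07 in B3galt5D116A and -1.82 in B3gnt7-/- for Fxyd4 (adjusted p = 0.268 and 0.103), and 4.07 in B3galt5D116A and 2.65 in B3gnt7-/- for Ang4 (adjusted p = 0.0932 and 0.367). Fxyd4 also lost it without either St6galnac6-/- library, with adjusted p of 0.109 and 0.115, and Ang4 under quantile normalization, with 0.0590. In the same comparisons Hoxb13 had log2 differences of -0.08 and -0.31 and Hoxd13 of 0.26 and 0.15, none past the threshold. Of the small intestinal list 0 of the 5 tested genes passed against wild-type, near the background of 0.0867%, 0.078% and 0.052% of all genes.

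Regulators and partners of Hox genes showed 0 calls against wild-type, near the 0.0867%, 0.078% and 0.052% of all genes that passed, so these counts are no result about the lists. The 5 tested cofactors, which help Hox proteins bind DNA, had medians of -0.10, -0.09 and -0.05 in St6galnac6-/-, B3galt5D116A and B3gnt7-/-, with Pbx2 at 15.7 FPKM, while Meis1 was at 0 to 0.251 FPKM. The 8 polycomb and trithorax genes had medians of 0.04, -0.07 and -0.02. Of the 10 tested gut factors, with medians of -0.00028, -0.12 and 0.0042, Hnf4a was highest at 204 to 245 FPKM. Cdx4 and Sox2 were listed at 0 in all 8 libraries. Hoxa11os, the most abundant of the Hox noncoding transcripts, was at 55.8 and 53.8 FPKM for the St6galnac6-/- male and female, 50.0 and 25.7 FPKM for the B3galt5D116A pair, 31.2 and 74.6 FPKM for the B3gnt7-/- pair, and 68.6 and 59.9 FPKM for the wild-type pair. Its lowest libraries were the B3galt5D116A female and the B3gnt7-/- male, the same as for Hoxb13. Of the 6 tested noncoding transcripts 0 passed, and all 6 differences were negative in B3galt5D116A, with a median of -0.33. The medians were also negative in St6galnac6-/- and B3gnt7-/-, at -0.17 and -0.23, with 2 positive and 4 negative differences in each. The 10 tested Cdx targets had medians of -0.13, 0.02 and 0.06, with the adhesion protein Cdh17 at 236 to 293 FPKM.

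Whether the members ordered the libraries alike was asked pair by pair, over 28 pairs of the 8 tested genes. By an exact permutation test over the 8 libraries with Benjamini-Hochberg adjustment, 0 pairs passed, and 5 had an unadjusted p under 0.05. Hoxa9 and Hoxd13 had Pearson r = 0.80 (exact p = 0.0137, adjusted p = 0.247) and Spearman rho = 0.81 (exact p = 0.0218, adjusted p = 0.610), with r = 0.60 without the B3galt5D116A and B3gnt7-/- female libraries. Hoxa10 and Hoxb13 had r = 0.82 (exact p = 0.0246, adjusted p = 0.247) and rho = 0.55 (exact p = 0.171, adjusted p = 0.684). Without the B3galt5D116A female and B3gnt7-/- male libraries, the farthest from the median of Hoxa10, r was -0.12, so that relation rests on them together. With any 1 library left out r was 0.75 to 0.88. Hoxb13 and Hoxd13 had r = 0.47 (exact p = 0.254, adjusted p = 0.592) and rho = 0.31 (exact p = 0.462, adjusted p = 0.821), with r = -0.47 without the same libraries.

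For Hoxb13, Hoxd13 and Cdx2 the 3 tested genes with the most similar profile were listed by Pearson r over the 8 libraries, as a description, since the highest of 11536 values is high by choice. For Hoxb13 they were Tpcn2 (r = 0.97), an ion channel of endosomes and lysosomes, Gmeb1 (r = 0.97) and Btn1a1 (r = 0.96). For Hoxd13 they were 5830417I10Rik (r = 0.96), the deubiquitinase Usp21 (r = 0.95) and the bacterial sensor Nod1 (r = 0.95). For Cdx2 they were Apopt1 (r = 0.97), Rcl1 (r = 0.96) and the zinc transporter Slc39a10 (r = 0.96). No member was among them.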

How the data were processed

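Per the labels' protocols, RNA of colon epithelial cells was extracted with a miRNeasy Micro Kit, and a TruSeq stranded mRNA kit was used for the 8 libraries. The genome build was mm10, and the tools named were Cuffdiff 2.2.1, SAMtools 0.1.18, Bowtie2 2.2.8 and TopHat2 2.1.1, per the submitters' processing notes. The authors deposited 1 table of FPKM values per library, per the file headers. Parameters, annotation, scaling between libraries and any batch are not given in the sources used here.

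Values were taken as log2(FPKM + 1), which understates changes of low genes. The 11537 genes that averaged 1 FPKM or more entered limma 3.58.1 (R 4.3.3, eBayes with trend), with genotype and sex as additive terms over all 8 libraries, two-sided, with Benjamini-Hochberg adjustment over these genes and a threshold of 0.05. The fit had 3 residual and 4.02 prior degrees of freedom and assumes 1 spread for all genotypes. Where a library was left out, the lone library of its genotype was assumed to vary like the others. Intervals are 95% and not adjusted over genes. Pairs of members were compared by exact permutation of the 8 libraries. Other settings were pseudocounts, filters, normalizations, terms and libraries left out.

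Positions and homeoboxes came from GENCODE M21 (mm10). The members, lists and tests were chosen with earlier results of these data known. By rule the text was to name all members, listed genes that passed, and otherwise the listed genes with the highest level. The last part was not followed for every list. Muc2, a Cdx target with a mean of 1402 FPKM, was left out, for example. Other listed genes, such as Aqp4, Slc10a2, Hoxb7, Meis1, Meis3, Krt20 and Cdh1, were named after their values were seen. Of the 7 distal names 6 were matched. Some listed genes and sequences are not reported here.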

Additional observations from a re-analysis of the deposited data

Results flagged for a closer look

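For 24 pairs of a tested member and a mutant, the difference from wild-type was taken within each sex, and those with opposite signs and at least 0.25 on the log2(FPKM + 1) scale in both sexes were picked, which gave 2. Each sex has 1 library per genotype, so the difference between the sexes was not tested. Hoxa11 in B3gnt7-/- differed from wild-type by -0.64 in males and 0.36 in females. Hoxd10 in B3gnt7-/- differed from wild-type by -0.36 in males and 0.89 in females. In both, the B3gnt7-/- female library is the higher of its pair, and it is the library in which the summed level of the 10 stromal markers was 29.98 FPKM, against 3.37 to 5.78 FPKM in the others. The part of these markers in the result was not tested.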

How the results depend on the processing

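The count of members past the threshold was 0 under all 125 combinations of a comparison and an alternative (pseudocounts of 0.1 and 5, all genes kept, a floor of 5 FPKM, quantile normalization or median centring, no sex term, only the genotypes compared, and each library left out), with a smallest limma adjusted p of 0.142. That value was for Hoxd10 between B3galt5D116A and B3gnt7-/- without the B3gnt7-/- male library. Of 56 differences of a member in a comparison, 40 changed sign under at least 1 alternative, 10 of them under a change of processing and the rest only when a library was left out. Pairs of members past the threshold stayed at 0 of 28 with a pseudocount of 0.1, with quantile normalization and, in a check chosen after seeing the data, without each library in turn. The number at an unadjusted p under 0.05 was 8 with quantile normalization and 0 without the B3galt5D116A female library, against 5. Set against Cdx2 alone, the difference of the Hoxd13 balance between St6galnac6-/- and wild-type was 0.014, against 0.14 with Cdx1 and Cdx2; the cause was not tested. Counts per gene were not given, so the limit set by depth is not known for Hoxd10, Hoxa11 and Hoxd12, the lowest members. The labels carry no replicate numbers, so no further replicate block was fitted. The sex term already pairs the male and the female libraries across genotypes, and without it 0 members passed.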
